A study of Malus domestica with 6 samples.

Results

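The ketoacyl-ACP synthase (KAS) transcripts of apple pulp were represented by 6 genes of the 46558 genes listed in the expression table. They were taken by identifier and comprised 3 KASI genes, 1 KASII gene and 2 KASIII genes. MdKASI-1 (MD10G1264200) lies on chromosome 10, MdKASI-2 (MD14G1131500) on chromosome 14 and MdKASI-3 (MD05G1286700) on chromosome 5 of the apple genome GDDH13. MdKASII (MD15G1221800) lies on chromosome 15, MdKASIII-1 (MD08G1135900) on chromosome 8 and MdKASIII-2 (MD09G1022600) on chromosome 9. The genes were selected because their expression differed between Jonagold and Granny Smith in these same libraries, so their values, fitted changes and calls are given here as a description, and no p-value is given for them. Any KAS gene that did not differ is absent from this list. Sums, shares and ranks of KAS genes below cover these 6 genes only.

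RNA-seq was performed on ripe, unbagged fruits of the red-skinned cultivar Jonagold and the green-skinned cultivar Granny Smith, with 3 libraries per cultivar. The paper reports less internal ethylene in Granny Smith than in Jonagold fruits. Whether the state of ripening differed at sampling was not tested. Both cultivars were grafted on the same rootstock and grown at the same station, and each library was made from pulp, without the peel, pooled from several fruits. The table gives 1 value per gene and library, deposited as FPKM. By definition FPKM is the fragments mapped to a gene, corrected for its length and for the depth of the library. The deposited values were not scaled by the read sums of the libraries alone, as described below. The identifiers carry no tissue marker names, so the pulp label was not checked against markers.

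The KAS enzymes carry out the condensation step of fatty acid synthesis in the plastid, joining an acyl chain to malonyl-ACP and so lengthening it. KASIII starts the chain by condensing acetyl-CoA with malonyl-ACP, KASI carries the chain on to palmitoyl-ACP, and KASII lengthens palmitoyl-ACP to stearoyl-ACP. In Arabidopsis, a loss of KASII activity raises the share of palmitic acid. In apple fruit, fatty acids are the source of straight-chain aldehydes, alcohols and esters.

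Depth was slightly lower in Jonagold. The paper reports that a smaller share of clean reads mapped to the genome in each Jonagold library than in each Granny Smith library. The effect of this on the values was not tested. The FPKM values could be turned back into whole reads, which summed to between 14782112 and 17258070 per Jonagold library and to between 17601935 and 17733010 per Granny Smith library. Sequencing was paired-end, so a recovered read may stand for a pair of reads. The sums are therefore not comparable with the read counts of the paper, which are larger. Jonagold replicate 2 and Granny Smith replicate 1 had similar sums, 17258070 and 17675735. For the same gene, 1 read still weighed 1.29 times as much in Jonagold replicate 2. The deposited values were thus not corrected for these read sums alone. The paper's supplement lists far larger values for the same 6 genes, also labelled FPKM. For each gene they stand in the same proportions between libraries, so the library factors were those of the study's own listed values. The deposited FPKM values summed to between 755644 and 800812 per Jonagold library and to between 554856 and 599617 per Granny Smith library. A difference in FPKM between the cultivars therefore depends on whether these totals are left as deposited or made equal, whereas a ratio of genes within 1 library does not. Genes that averaged 1 FPKM or more over the 6 libraries were fitted with limma on log2(FPKM + 1), and a gene was called a DEG with a Benjamini-Hochberg adjusted p-value below 0.05 and at least a 2-fold change on that scale. With the totals made equal, the median log2 change over the tested genes was -0.35, against 0.00 as deposited.

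The starting enzyme KASIII was represented by an abundant and a scarce copy, and both were higher in Jonagold. MdKASIII-1 had 41.2, 38.6 and 36.3 FPKM in Jonagold replicates 1, 2 and 3, against 18.0, 16.6 and 16.2 FPKM in Granny Smith replicates 1, 2 and 3. The replicates of each cultivar lay close together and far from those of the other. The ratio of mean FPKM was 2.29, and the log2 fold change was 1.15 (standard error 0.10). In bulk tissue, a lower level in a cultivar cannot be told apart from a smaller share of the cells that hold the transcript.

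MdKASIII-2 had 8.80, 6.01 and 5.87 FPKM in Jonagold replicates 1, 2 and 3, against 1.21, 0.424 and 0.947 FPKM in Granny Smith replicates 1, 2 and 3. The lowest Jonagold library was thus well above the highest Granny Smith library, and Granny Smith replicate 2 was the lowest of all. These levels rested on 136 to 206 reads per Jonagold library and on 15 to 41 reads per Granny Smith library. The ratio of mean FPKM was 8.00, that of the pooled reads was 8.01 with a 95% interval for counting error alone of 6.39 to 10.1, and the log2 fold change was 2.09 (standard error 0.22). The larger ratio therefore belonged to the scarce copy, while the abundant copy made up 78.3% of the difference in the summed KASIII level.

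KASI, which lengthens the chain after the first condensation, was represented by 3 copies of very different level. MdKASI-3 was the most abundant copy in both cultivars. It had 63.5, 46.5 and 45.6 FPKM in Jonagold replicates 1, 2 and 3, against 24.9, 22.3 and 23.7 FPKM in Granny Smith replicates 1, 2 and 3. Jonagold replicate 1 was the highest library, and the other 2 Jonagold libraries were nearly equal. The ratio of mean FPKM was 2.19 and the log2 fold change was 1.09 (standard error 0.14), and without Jonagold replicate 1 these were 1.95 and 0.93, below the 2-fold criterion.

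MdKASI-1 had 10.9, 14.8 and 12.3 FPKM in Jonagold replicates 1, 2 and 3, against 1.00, 0.529 and 0.894 FPKM in Granny Smith replicates 1, 2 and 3. It was the only KAS gene for which Jonagold replicate 1 was the lowest of the Jonagold libraries. It had 287 to 436 reads per Jonagold library and 21 to 38 reads per Granny Smith library. The ratio of mean FPKM was 15.7, with a 95% counting interval of 12.8 to 19.7 around a ratio of pooled reads of 15.8.

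MdKASI-2 was the scarcest gene of the group. It had 3.54, 2.26 and 1.79 FPKM in Jonagold replicates 1, 2 and 3, against 0.111, 0.0213 and 0.0419 FPKM in Granny Smith replicates 1, 2 and 3. In Jonagold the values stood for 110, 79 and 55 reads, and in Granny Smith for 5, 1 and 2 reads. The ratio of pooled reads was 44.0, and its 95% counting interval ran from 22.0 to 103, so that the size of this difference was poorly fixed. Without Granny Smith replicate 1, which held most of the reads of that cultivar, the ratio of mean FPKM was 80.0.

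The log2 fold changes ordered the KASI copies differently from the ratios. On log2(FPKM + 1), MdKASI-1 had 2.92 (standard error 0.17) and MdKASI-2 had 1.71 (standard error 0.21), because the added 1 shrinks the change of a gene that stays near 0 FPKM. With 0.1 added in its place, the log2 fold changes were 3.84 for MdKASI-1 and 4.04 for MdKASI-2, in the order of the ratios, and 2.94 for MdKASIII-2. The counting intervals of the ratios of MdKASI-1 and MdKASI-2 did not overlap. They leave out the variation between replicates, so they do not settle this order.

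KASII, the enzyme that extends palmitoyl-ACP, went the other way. MdKASII had 31.0, 16.2 and 17.5 FPKM in Jonagold replicates 1, 2 and 3, against 51.5, 46.0 and 55.7 FPKM in Granny Smith replicates 1, 2 and 3. All Jonagold libraries were below all Granny Smith libraries, and Jonagold replicate 1 lay nearest to them. The mean was 2.37-fold lower in Jonagold, and 3.03-fold lower without Jonagold replicate 1. The log2 fold change was -1.26 (standard error 0.22).

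**Figure D1:**
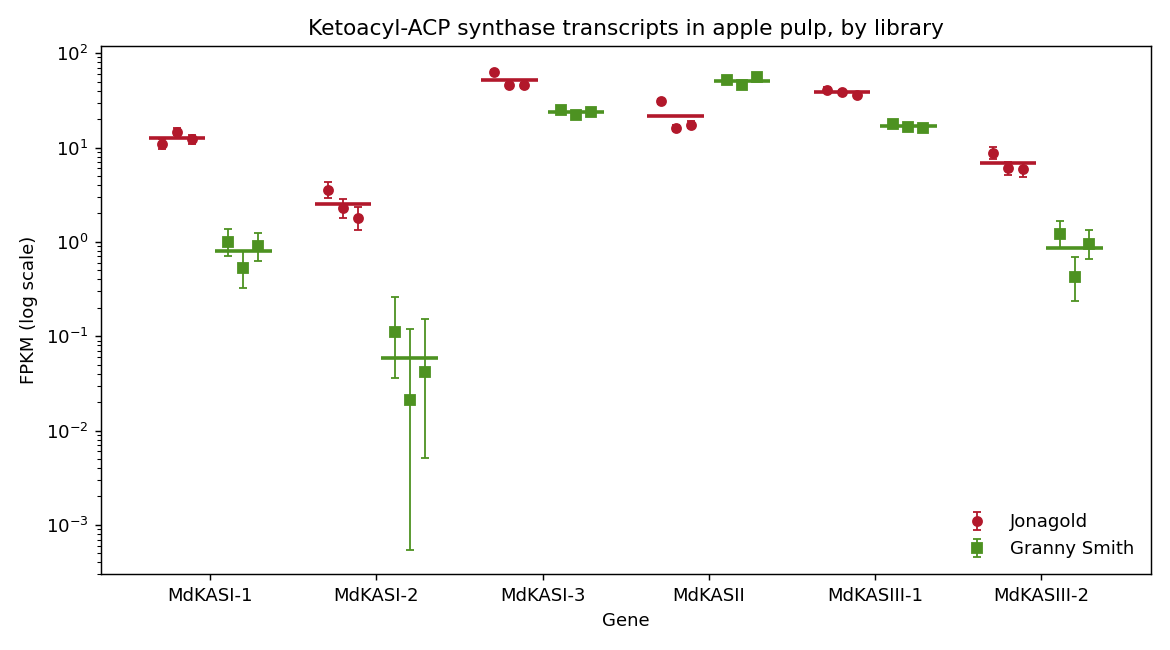
FPKM of the 6 KAS genes on a log axis, with Jonagold (circles) to the left of Granny Smith (squares) for each gene. Each point is 1 library with the 95% Poisson interval of its reads, and the horizontal bar is the cultivar mean. MdKASII is the gene with the lower values in Jonagold, and the intervals of MdKASI-2 in Granny Smith are widest because they rest on 1 to 5 reads.

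All 6 KAS genes reached the minimum mean over the 6 libraries. MdKASI-1, MdKASI-2 and MdKASIII-2 reached it only through Jonagold, with means of 0.808, 0.0582 and 0.861 FPKM in Granny Smith. Of the 6 genes, 5 lay past the DEG criteria as higher and 1 as lower in Jonagold, the property for which they had been selected. Of the 20993 genes tested, 12.0% were called higher and 9.34% were called lower, which is 2515 and 1960 genes. With equal FPKM totals this split turned, with 1772 genes called higher and 3426 called lower. The cultivars did not overlap in any of the 6 KAS genes. In 5 of them every Jonagold library was above every Granny Smith library, as in 30.4% of all tested genes, and in MdKASII every Jonagold library was below, as in 29.2% of all tested genes, which makes 59.6% without overlap in either direction. Since the genes were selected for this difference, these counts are not evidence about the group. The median log2 change was 1.43 over the 6 KAS genes and 0.00 over all tested genes.

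Each of the 5 higher genes and the lower one kept its direction when the FPKM totals were made equal or the values were quantile normalized. With equal totals, the ratios of mean level were 1.73 for MdKASIII-1, 1.66 for MdKASI-3 and 6.03 for MdKASIII-2. The same scaling gave 11.8 for MdKASI-1 and 33.0 for MdKASI-2, and made MdKASII 3.14-fold lower in Jonagold. The abundant KASI and KASIII copies thereby fell under the 2-fold criterion, and the difference in MdKASII became larger.

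**Figure D2:**
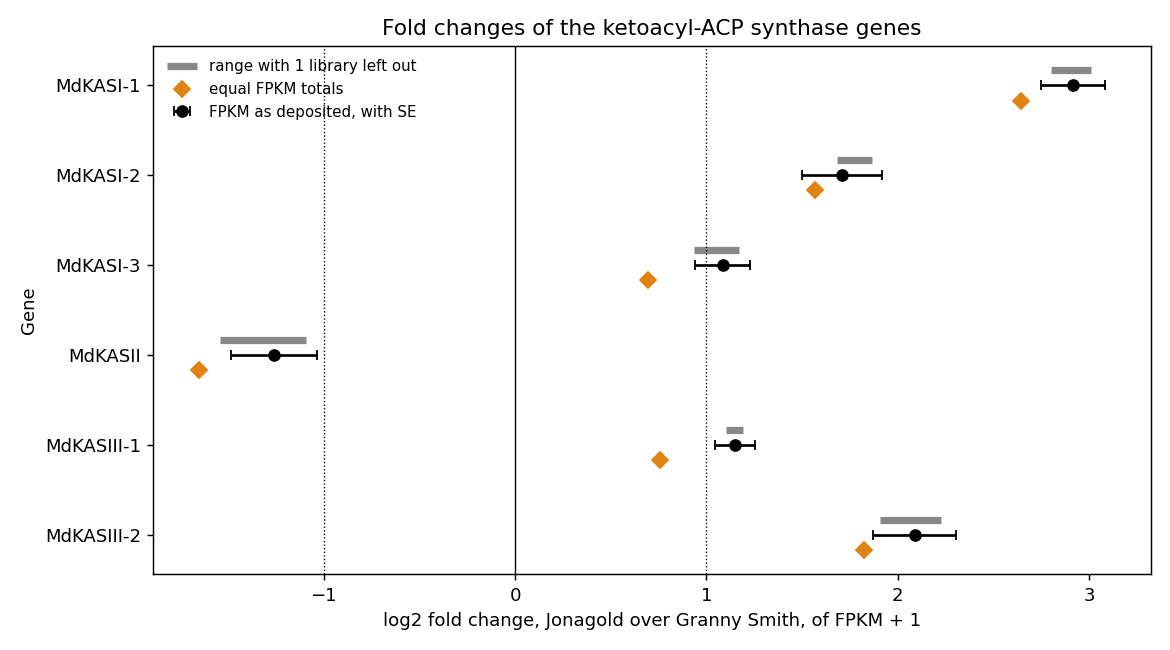
Log2 fold change of log2(FPKM + 1), Jonagold over Granny Smith, for each KAS gene. Black points with bars give the limma estimate and its standard error, grey bars the range when 1 library is left out, and orange diamonds the estimate with equal FPKM totals. Dotted lines mark the 2-fold criterion. MdKASI-3 and MdKASIII-1 lie just beyond it as deposited, at 1.09 and 1.15, and inside it with equal totals, at 0.69 and 0.76.

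The order of the 6 genes by FPKM differed between the cultivars. In Jonagold it was MdKASI-3, MdKASIII-1, MdKASII, MdKASI-1, MdKASIII-2 and MdKASI-2, and no neighbours in this order overlapped between their 3 libraries. In Granny Smith the order was MdKASII, MdKASI-3, MdKASIII-1, MdKASIII-2, MdKASI-1 and MdKASI-2. There MdKASIII-2 and MdKASI-1 overlapped, at 0.861 ± 0.401 and 0.808 ± 0.248 FPKM (SD, n = 3), and their order was not resolved.

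MdKASII was the highest KAS gene in Granny Smith and the third in Jonagold. Its mean level exceeded that of 77.0% of the tested genes in Jonagold and of 90.9% in Granny Smith. MdKASI-3 lay above 90.0% of the tested genes in Jonagold and above 79.4% in Granny Smith. MdKASIII-1 lay above 86.6% in Jonagold and above 72.5% in Granny Smith.

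Among the listed genes, the dominant copy of each class was the same in every library, but its dominance was weaker in Jonagold. The scarce KASI and KASIII copies were selected as higher in Jonagold and averaged below 1 FPKM in Granny Smith. The weaker dominance therefore describes the listed copies and is not evidence about the classes. MdKASI-3 made up 81.5%, 73.2% and 76.4% of the summed KASI FPKM in Jonagold replicates 1, 2 and 3, against 95.7%, 97.6% and 96.2% in Granny Smith replicates 1, 2 and 3. The means were 77.0% ± 4.16 in Jonagold and 96.5% ± 0.970 in Granny Smith (SD, n = 3). The share left by MdKASI-3 was taken mostly by MdKASI-1, which made up 19.3% ± 4.75 of the KASI sum in Jonagold and 3.26% ± 0.829 in Granny Smith.

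MdKASI-2 stayed a minor copy in both cultivars. Its share of the KASI sum was 3.70% ± 0.779 in Jonagold and 0.230% ± 0.175 in Granny Smith (SD, n = 3). In terms of the difference in summed KASI level, 42.6 FPKM, MdKASI-3 accounted for 66.3%, MdKASI-1 for 27.8% and MdKASI-2 for 5.81%. The most abundant copy therefore carried most of the difference in FPKM, although it had the smallest ratio of the 3 copies.

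The KASIII class showed the same shape. MdKASIII-1 made up 82.4%, 86.5% and 86.1% of the KASIII sum in Jonagold replicates 1, 2 and 3, against 93.7%, 97.5% and 94.5% in Granny Smith replicates 1, 2 and 3. The share of MdKASIII-2 was 15.0% ± 2.27 in Jonagold and 4.78% ± 2.02 in Granny Smith (SD, n = 3), without overlap. Reads of similar copies can be assigned to either of them, and how the counting treated such reads is not given in the sources used here, so that the levels of the scarce copies are uncertain in this respect.

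**Figure D3:**
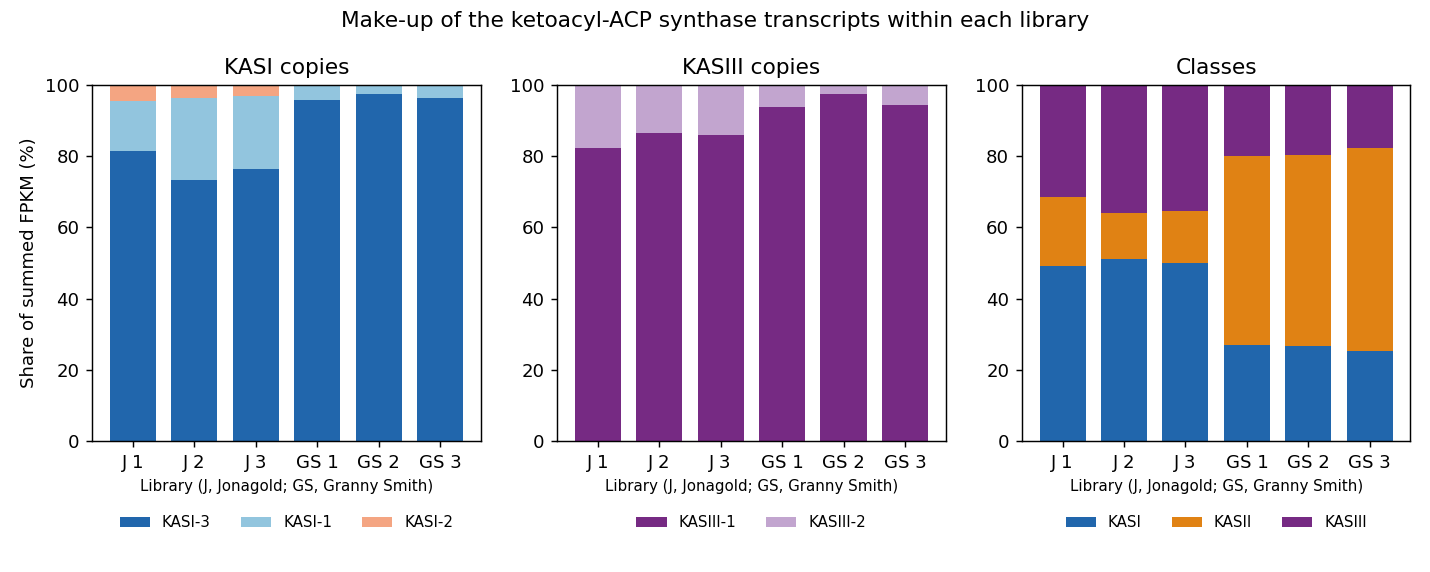
Stacked shares of summed FPKM in each library, with the Jonagold libraries (J) left of the Granny Smith libraries (GS). The panels show the 3 KASI copies, the 2 KASIII copies and the 3 classes. The share of KASII in all KAS FPKM is between 13.0% and 19.5% in Jonagold and between 53.3% and 57.2% in Granny Smith.

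The balance of the classes was compared within libraries, where the scaling of a library has no part. KASII made up 15.7% ± 3.37 of the summed FPKM of the 6 listed genes in Jonagold and 54.7% ± 2.16 in Granny Smith (SD, n = 3). KASI made up 50.1% ± 1.03 in Jonagold and 26.3% ± 0.893 in Granny Smith. KASIII made up 34.2% ± 2.42 in Jonagold and 19.1% ± 1.27 in Granny Smith. Among the listed genes, KASI thus had the largest share in Jonagold pulp and KASII had the largest share in Granny Smith pulp.

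The ratio of KASII to KASI was 0.397, 0.254 and 0.294 in Jonagold replicates 1, 2 and 3, against 1.98, 2.01 and 2.26 in Granny Smith replicates 1, 2 and 3. The mean ratio was 6.61-fold lower in Jonagold. By contrast, the ratio of KASIII to KASI was 0.641, 0.702 and 0.707 in Jonagold replicates 1, 2 and 3, against 0.736, 0.742 and 0.696 in Granny Smith replicates 1, 2 and 3. These values overlapped between the cultivars only through Granny Smith replicate 3, with means of 0.683 ± 0.0368 in Jonagold and 0.725 ± 0.0249 in Granny Smith (SD, n = 3).

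The abundant copies alone gave the same picture. MdKASI-3 over MdKASIII-1 was 1.33 ± 0.182 in Jonagold and 1.40 ± 0.0578 in Granny Smith (SD, n = 3), and the ranges overlapped. Among the listed genes, the proportion of KASIII to KASI thus overlapped between the cultivars, and the proportion of KASII to either of them did not. The listed genes were selected for their differences, KASI and KASIII as higher and KASII as lower in Jonagold. The shift of KASII against the other classes follows from that selection and is not evidence about the balance of the classes.

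**Figure D4:**
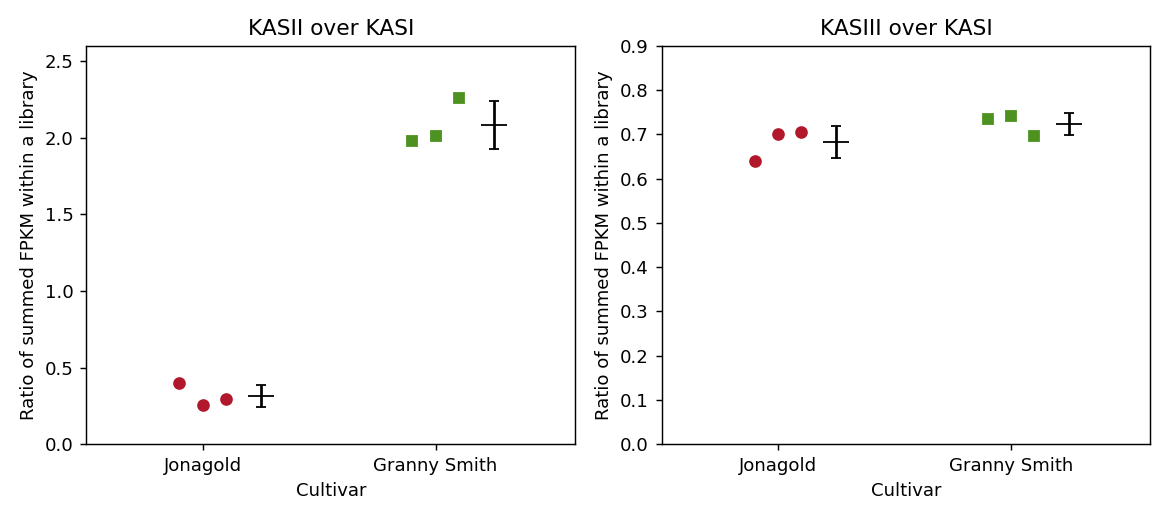
Ratio of summed FPKM within each library, KASII over KASI on the left and KASIII over KASI on the right, with Jonagold left of Granny Smith in each panel. Points are libraries, and the black mark with its bar is the mean and SD (n = 3). The KASII to KASI ratio is 0.315 in Jonagold and 2.08 in Granny Smith, whereas the KASIII to KASI ratios overlap.

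The summed level of all 6 KAS genes depended on the scaling. As deposited, it was 159, 124 and 119 FPKM in Jonagold replicates 1, 2 and 3, against 96.8, 85.9 and 97.4 FPKM in Granny Smith replicates 1, 2 and 3. Expressed in parts per 1000000 of the FPKM total of its library, it was 208, 155 and 158 in Jonagold replicates 1, 2 and 3, against 162, 143 and 176 in Granny Smith replicates 1, 2 and 3. The cultivars did not overlap in the first measure and did overlap in the second, so the scaling decided whether the total differed, while the class shares above are the same in both.

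The replicates of a cultivar did not vary equally in the 6 genes. The coefficient of variation (CV, the SD as a percent of the mean) of MdKASII was 38.0% in Jonagold, where counting error alone would give 3.67%, and 9.47% in Granny Smith, where it would give 1.97%. The log2 spread of MdKASII in Jonagold was larger than that of 93.5% of the tested genes. MdKASIII-1 had the smallest CV of the 6 genes in Jonagold, 6.36%, and one of 5.55% in Granny Smith, where that of MdKASI-3 was 5.54%.

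The scarce genes varied most in Granny Smith. The CV of MdKASI-2 there was 81.1%, with 61.3% from counting alone, and that of MdKASI-1 was 30.6%, with 17.8% from counting alone. The CV of MdKASIII-2 was 46.6%, with 18.3% from counting alone, and Granny Smith replicate 2 was the low library.

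**Figure D5:**
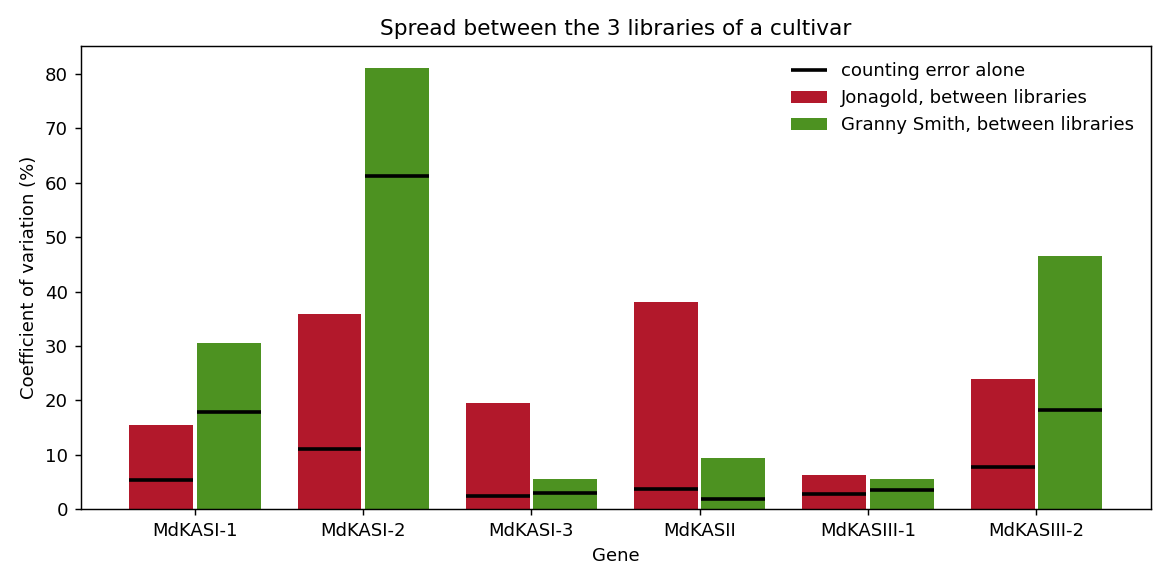
Coefficient of variation of FPKM between the 3 libraries of a cultivar for each KAS gene, Jonagold bars left of Granny Smith bars. Black lines mark the variation that Poisson counting of the reads alone would give. MdKASII in Jonagold stands out, at 38.0% against 3.67% from counting.

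Single libraries tended to be extreme for several KAS genes at once. Jonagold replicate 1 was the highest Jonagold library for 5 of the 6 genes, all but MdKASI-1, and it was the highest Jonagold library for 40.9% of all tested genes. Granny Smith replicate 2 was the lowest Granny Smith library for 5 of the 6 genes, all but MdKASIII-1, against 35.3% of all tested genes. The genes share these libraries and are not independent, and what sets the libraries apart was not tested.

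The other steps of the pathway are given by 14 further genes, which the study also selected on these libraries and which are therefore no independent evidence. They encode acetyl-CoA carboxylase (ACC), which makes malonyl-CoA, a group listed as MAT and annotated as acyl carrier protein, the ketoacyl reductases and enoyl reductases (KAR, ER) that act in each round, a gene listed as DH and annotated as hydroxyacyl-CoA dehydrogenase, the thioesterases (OTE) that release oleate, and a desaturase (FAD). Of the 14 genes, all were tested, and 13 lay past the criteria as higher in Jonagold and 1, MdFAD, as lower. Their median log2 fold change was 2.29, against 1.43 for the KAS genes.

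On log2(FPKM + 1), the largest change of this list was that of MdKAR-2, with 162 ± 28.1 FPKM in Jonagold and 7.35 ± 0.594 FPKM in Granny Smith (SD, n = 3) and a fitted log2 change of 4.28 (standard error 0.14). By the ratio of means MdOTE-1, which was singled out after its values were seen, changed more, with 27.0 ± 3.71 FPKM in Jonagold and 0.723 ± 0.282 FPKM in Granny Smith (SD, n = 3). The smallest fitted change was that of MdOTE-2, with 16.8 ± 0.507 FPKM in Jonagold and 6.18 ± 1.13 FPKM in Granny Smith and a fitted log2 change of 1.32 (standard error 0.14). MdKASI-3 and MdKASIII-1, at 1.09 and 1.15, were below that smallest value, and MdKASII shared its lower level in Jonagold with MdFAD, at -1.81 (standard error 0.29).

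Profiles most like those of the KAS genes were sought among the tested genes. Likeness was the root mean square distance between values of log2(FPKM + 1) over the 6 libraries, after each gene was centred on its own mean, so that it reads the difference between the cultivars and the deviations of single libraries together. MdKASI-3 was closest to MD05G1045600 at 0.03 and MD12G1143300 at 0.05. MdKASIII-1 was closest to MD12G1258800 and MD17G1216800, both at 0.05. Within a distance of 0.2 there were 629 genes for MdKASI-3 and 806 for MdKASIII-1, so that such profiles were common.

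The profiles of MdKASI-1, MdKASII and MdKASIII-2 had fewer near neighbours, with 24, 61 and 68 genes within 0.2. MdKASII was closest to MD10G1077100 at 0.09 and MD13G1207100 at 0.11, and with 0.1 added these ranked 1 and 33. MD10G1077100 had 81.8, 42.7 and 49.8 FPKM in Jonagold replicates 1, 2 and 3, against 129, 139 and 157 FPKM in Granny Smith replicates 1, 2 and 3, and so shared the high value of Jonagold replicate 1. The sources used here give no name for these identifiers.

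The neighbours of the scarce copies depended on the added 1. MdKASI-1 was closest to MD10G1305100 at 0.09 and MD16G1228900 at 0.16, and MD16G1228900 is listed at 0 in all 3 Granny Smith libraries. MdKASI-2 was closest to MD16G1146400 and MD16G1211500, both at 0.06, with 197 genes within 0.2. MdKASIII-2 was closest to MD16G1202600 at 0.08 and MD05G1047300 at 0.09. With 0.1 added in its place these genes were no longer the nearest, and ranked 68 and 1595 for MdKASI-1, 1212 and 84 for MdKASI-2, and 94 and 283 for MdKASIII-2. MD16G1146400, for example, averaged 11.9 FPKM in Jonagold and 3.07 FPKM in Granny Smith, a far smaller ratio than that of MdKASI-2. On log2(FPKM + 1), among the named fatty acid genes, MdMAT-2 was the nearest to MdKASIII-2, at 0.12, and was the 4th nearest of all tested genes. MdKASI-3 and MdKASIII-1 were each other's nearest named gene, at 0.12, but many unnamed genes were nearer. Among all tested genes MdKASIII-1 was the 90th nearest to MdKASI-3, and MdKASI-3 the 140th nearest to MdKASIII-1.

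Genes next to the KAS genes were compared by taking the 5 listed identifiers on each side along the chromosome. Of these 60 flanking genes, 21 were tested, and 1 was called, against 21.3% of all tested genes. The called gene was MD09G1022300, the second identifier before MdKASIII-2, with mean levels of 206 FPKM in Jonagold and 52.7 FPKM in Granny Smith, a log2 fold change of 1.95. Around the other 5 KAS genes, limma called 0 of the 17 tested flanking genes at the 2-fold criterion, although 13 had an unadjusted p-value below 0.05 and 11 an adjusted one, as 10371 of all 20993 tested genes had. The largest change around each of them was 0.87 on the log2 scale for MD15G1222200 near MdKASII, 0.83 for MD14G1130800 near MdKASI-2 and 0.71 for MD05G1287000 near MdKASI-3. MD10G1264300 next to MdKASI-1 had -0.67 and MD08G1135800 next to MdKASIII-1 had -0.44. With Jonagold replicate 1 left out the count over all flanking genes was 3, and it was 2 with Jonagold replicate 3 or Granny Smith replicate 2 left out.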

How the data were processed

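Clean reads were aligned to the apple genome GDDH13 by the authors, who quantified each gene with Cufflinks and deposited the FPKM values, 1 column per library. The submitters' processing notes instead name Bowtie 0.12.2 and the mouse builds mm8 and mm9, which cannot apply to apple identifiers. All 6 columns were used. Gene names follow the study's list. The genes, lists and tests were chosen with earlier results of these data known. In the named gene rule, the 2 nearest profiles per KAS gene, the extremes of the fatty acid list and the flanking gene with the largest change were named.

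Each FPKM value is a whole read number times a factor of its library and a factor of its gene, and these reads came back, to within 0.02 reads, for all 34279 genes above 0, unless all libraries of a gene share a divisor. Intervals are exact at 95% (Poisson for a library, Clopper-Pearson for a ratio) and cover counting error only. limma 3.58.1 (R 4.3.3, eBayes with trend) was run on log2(FPKM + 1) for genes that averaged 1 FPKM or more, since FPKM are not counts. It was tested on simulated data. Shares, distances and intervals were computed in Python 3.11.15 with scipy 1.17.1. Alternatives were other pseudocounts, filters and scalings, no trend, a replicate block and each library left out.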

Additional observations from a re-analysis of the deposited data

How the results depend on the processing

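Under the 180 alternative values computed, no KAS fold change changed sign, and 165 values were counted as unchanged, by their side of the criterion or by the spread. Many of these could not change, since the filters, the trend and the replicate block leave a log2 fold change as it is. The number of KAS genes called was also counted as unchanged where it fell from 6 to 4, with equal totals and without Jonagold replicate 1. With equal FPKM totals, the log2 fold change of MdKASI-3 was 0.69 and that of MdKASIII-1 was 0.76, both below the 2-fold criterion, and quantile normalization gave 1.00, just under it, for MdKASI-3. Equal totals reversed the split of all DEGs, with 1772 higher and 3426 lower in Jonagold, against 2515 and 1960 as deposited. A pseudocount of 0.1 raised the log2 fold changes to 3.84 for MdKASI-1, 4.04 for MdKASI-2 and 2.94 for MdKASIII-2. MdKASI-2 was below the minimum mean, and so had no value, with a minimum of 2 FPKM and without Jonagold replicate 1. Counted as reads, not per length, MdKASIII-1 made up 88.0% of KASIII in Jonagold, and the KASII to KASI ratio was 2.28 in Granny Smith. Flanking genes called numbered 2 without a minimum mean and 3 with equal totals. A pseudocount of 0.1 moved the distances of the nearest profiles to 0.40 for MdKASI-1, 1.10 for MdKASI-2 and 0.40 for MdKASIII-2, and equal totals gave 0.14 for MdKASI-2.

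When libraries were left out 1 at a time, the KAS genes called ranged from 4 to 6, all DEGs from 4346 to 4607, and flanking genes called from 1 to 3. The log2 fold changes ranged from 2.80 to 3.01 for MdKASI-1, from 1.68 to 1.86 for MdKASI-2, from 0.93 to 1.17 for MdKASI-3, from -1.54 to -1.09 for MdKASII, from 1.10 to 1.19 for MdKASIII-1 and from 1.91 to 2.22 for MdKASIII-2. The KASII to KASI ratio ranged from 0.274 to 0.346 in Jonagold and from 1.99 to 2.14 in Granny Smith. The cause of these shifts was not tested. With a replicate block, 4501 DEGs were called and the call of no KAS gene changed, but the labels name no pairing of the libraries. The deviations of same-numbered libraries correlated across genes at 0.16, 0.28 and -0.03 for replicates 1, 2 and 3. Those of differently numbered libraries correlated at between -0.25 and 0.11.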
